A study of Mus musculus with 4 samples.

Results

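The genes S1pr1, S1pr4, Klf2, Klf3 and Cd69, grouped here as lymph node egress and retention genes, were followed across the series. They encode 2 receptors for a lipid, 2 transcription factors and a retention receptor. They were chosen by gene symbol with earlier results of these data known, and all 5 were found among the 16338 gene rows of each library. RNA sequencing had been run on mouse T cells that carried the TRP1high or the TRP1low T cell receptor and had been stimulated for 48 h by B cells loaded with the M9 or the K8 peptide. The 4 groups were TRP1high with M9, TRP1high with K8, TRP1low with M9 and TRP1low with K8, with 1 library each, and the series concerns CD8 T cells that recognise a tumour antigen. All groups share the co-culture with B cells and the sorting of T cells out of it before total RNA was taken. The sources used here give neither strain nor age, nor how many animals or cultures were used. Without replicates, how far cultures of 1 group vary could not be measured.

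T cells leave lymph nodes by following sphingosine 1-phosphate, a lipid that is scarce in the node and plentiful in lymph and blood, which they sense through the receptor encoded by S1pr1. KLF2 is a zinc finger transcription factor of resting T cells that switches on S1pr1. Signals from the T cell receptor turn Klf2 and S1pr1 down and induce CD69, a C-type lectin-like membrane protein that binds the S1PR1 protein and has it taken into the cell, which holds an activated T cell in the node.

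The libraries held between 29.6 and 41.5 M estimated reads, with the fewest in TRP1low with K8. Levels are log2 of normalized counts plus 1, as deposited by the authors, and folds are ratios of normalized counts. Intervals are exact 95% Clopper-Pearson intervals of a ratio of estimated reads and cover counting error only. In bulk RNA, fewer cells of a type and less RNA per cell cannot be told apart. The T cell label held against defining markers: Cd3d, Cd3e, Cd3g, Cd8a and Cd8b1 stood between log2 11.92 and 15.14 in every library, whereas Cd4 stood between 0 and 4.73.

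S1pr1, the main egress receptor, was lower with M9 than with K8 in both receptors and was the member with the widest range. It stood at 132 and 139 normalized counts in TRP1high and TRP1low with M9, against 430.2 and 2609.6 with K8. The M9 libraries were alike and low, TRP1high with K8 was intermediate, and TRP1low with K8 stood apart at the top. Both M9 values rest on 133 estimated reads each, and the K8 values on 431 in TRP1high and 1908 in TRP1low. S1pr1 lies on chromosome 3 (115710433 to 115715072, minus strand, mm10) and is protein coding.

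Relative to K8, S1pr1 was 3.27-fold lower with M9 in TRP1high (2.69 to 4.0), a log2 difference of -1.70. In TRP1low it was 18.7-fold lower (15.7 to 22.5), a log2 difference of -4.22. With libraries scaled to the same sum of Cd3d, Cd3e and Cd3g, transcripts of the T cell receptor complex, these differences were -2.39 and -4.44. Of the genes that reached 10 normalized counts in at least 1 of the libraries compared, 370 of 13161 had a lower M9 minus K8 difference in TRP1high and 99 of 13290 in TRP1low. The peptide differences of the receptors differed by 2.51 on the log2 scale, a larger positive value than in all but 405 of 13871 genes, and this difference of differences was not tested since each group held 1 library. Between receptors, S1pr1 was 6.07-fold lower in TRP1high than in TRP1low with K8 (5.46 to 6.75). With M9 the ratio of TRP1high to TRP1low was 0.943, with an interval of 0.736 to 1.21 that included equal levels, and its log2 difference of -0.08 was -0.72 with the same sum of Cd3 transcripts.

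S1pr4, a second sphingosine 1-phosphate receptor of lymphocytes, varied little. It stood at 1760.3 and 1779 normalized counts in TRP1high and TRP1low with M9, against 2155 and 2465 with K8. The M9 libraries were again the lower ones, by 1.22-fold in TRP1high (1.15 to 1.30) and 1.39-fold in TRP1low (1.30 to 1.48). TRP1high was 1.14-fold lower than TRP1low with K8 (1.07 to 1.22), and with M9 the interval of the ratio was 0.925 to 1.06. The log2 difference of TRP1high minus TRP1low with M9 was -0.02 and turned to 0.03 with libraries scaled to the same total and to 0.0011 with the same upper quartile. With the same sum of Cd3 transcripts it was -0.66, and the M9 minus K8 difference in TRP1high was -0.98, against -0.29 as deposited. S1pr4 lies on chromosome 10 (81497747 to 81500132, minus strand).

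Because of these unequal ranges, the balance between the receptors differed between libraries. Per kilobase of annotated exon, S1pr1 had 43.2 and 45.8 normalized counts in TRP1high and TRP1low with M9, against 141 and 857 with K8. S1pr4 had 738 and 746 per kilobase with M9, against 903 and 1033 with K8. The transcript used by each gene was not measured, so that these per-length levels take every annotated exon as present. On this scale S1pr4 was above S1pr1 in each library, and S1pr1 came closest to it in TRP1low with K8.

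**Figure D1:**
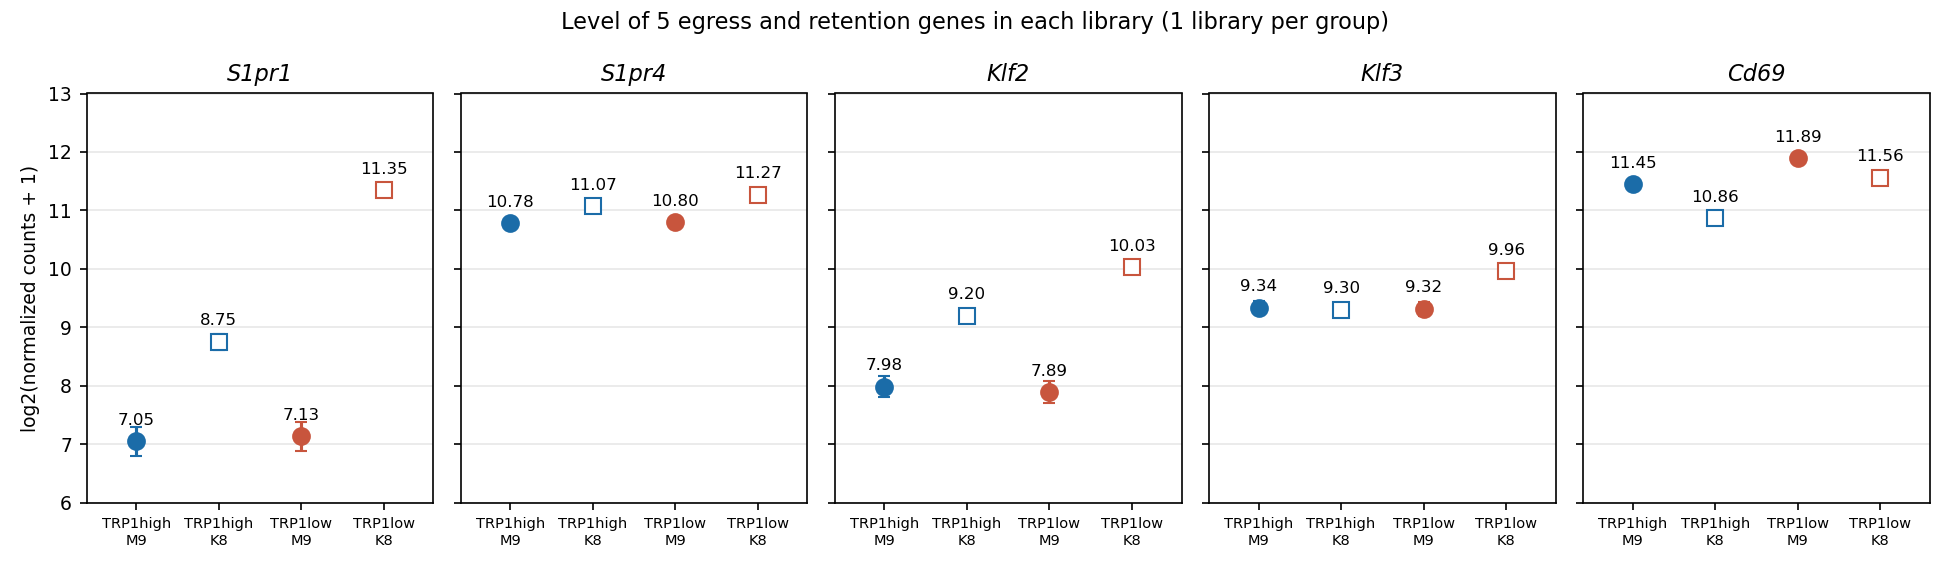
Level of each of the 5 genes as log2(normalized counts + 1) on the vertical axis, by library on the horizontal axis. Filled circles are M9 and open squares are K8, blue is TRP1high and red is TRP1low, and bars are 95% counting intervals; S1pr1 and Klf2 spread widely, with both M9 libraries lowest and TRP1low with K8 highest.

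Klf2, the factor that induces S1pr1, was ordered across the libraries much as S1pr1 was. It stood at 252 and 236 normalized counts in TRP1high and TRP1low with M9, against 588 and 1046 with K8. Both M9 libraries were low and TRP1low with K8 was highest. Klf2 was 2.33-fold lower with M9 than with K8 in TRP1high (2.01 to 2.71) and 4.43-fold lower in TRP1low (3.82 to 5.17). The log2 difference in TRP1high was -1.22, and -1.90 with the same sum of Cd3 transcripts. A lower M9 minus K8 difference was found for 584 of 13161 genes in TRP1high and 438 of 13290 in TRP1low. The peptide differences of the receptors were 0.93 apart on the log2 scale, which was not tested.

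Between receptors, Klf2 was 1.78-fold lower in TRP1high than in TRP1low with K8 (1.596 to 1.99), a log2 difference of -0.83 that reached 2-fold, at -1.01, with the same sum of Cd3 transcripts. With M9 the log2 difference was 0.10, the interval of the ratio was 0.89 to 1.29, and the direction turned to -0.55 with the same sum of Cd3 transcripts. Klf2 lies on chromosome 8 (72319033 to 72321656, plus strand).

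Klf3, a KLF factor that acts mainly as a transcriptional repressor, was nearly level in 3 libraries. It stood at 645 and 637 normalized counts in TRP1high and TRP1low with M9, against 629.7 and 997 with K8. TRP1low with K8 alone was higher. In TRP1low, Klf3 was 1.57-fold lower with M9 than with K8 (1.40 to 1.75), and in TRP1high the ratio of M9 to K8 was 1.02 (0.917 to 1.15). With the same sum of Cd3 transcripts, the log2 difference in TRP1high was -0.65, against 0.03 as deposited. With K8, Klf3 was 1.58-fold lower in TRP1high than in TRP1low (1.42 to 1.76). With M9 the receptor ratio was 1.01 (0.906 to 1.13), a log2 difference of 0.02 that turned to -0.63 with the same sum of Cd3 transcripts. Klf3 lies on chromosome 5 (64803388 to 64832901, plus strand). The annotation places Gm20033 on the other strand across the 5′ end of Klf3. It places C230096K16Rik on the same strand inside Klf3, downstream of its start. The sources used here do not say whether the libraries keep strand, so that some Klf3 reads could come from these loci.

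The level of Klf2 relative to Klf3 within a library does not depend on the scaling between libraries. On the log2 scale, Klf2 minus Klf3 was -1.35 and -1.43 in TRP1high and TRP1low with M9, against -0.10 and 0.07 with K8. The M9 libraries thus lay together below both K8 libraries. S1pr1 minus Klf2 was -0.93 and -0.75 with M9, against -0.45 and 1.32 with K8, so that TRP1low with K8 held more S1pr1 relative to Klf2 than the other 3 libraries did.

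Promoter sequences of mouse RefSeq genes on GRCm38.p6 were matched for S1pr4, Klf2 and Klf3, 3 of the 5 members, and are shown because these genes had unlike ranges while sharing their order of M9 and K8 in TRP1low. S1pr1 and Cd69 were not matched. Each runs 5′ to 3′ on the gene's strand from 250 bases before to 50 after the annotated start. Capitals mark matches on either strand to CACCC, the core bound by KLF factors, or to CTA and TAG with any 4 bases between them. The second pattern is looser than the core bound by MEF2 factors. The windows are chr8:72318812-72319111 (plus strand) for Klf2, chr5:64803271-64803570 (plus strand) for Klf3 and chr10:81500088-81500387 (minus strand) for S1pr4.
Klf2: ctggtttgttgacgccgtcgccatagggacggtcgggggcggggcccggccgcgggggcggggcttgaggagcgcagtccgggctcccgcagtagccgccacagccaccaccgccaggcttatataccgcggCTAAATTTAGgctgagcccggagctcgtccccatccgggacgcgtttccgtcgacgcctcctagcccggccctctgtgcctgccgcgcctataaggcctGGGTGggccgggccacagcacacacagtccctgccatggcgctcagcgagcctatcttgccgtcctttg
Klf3: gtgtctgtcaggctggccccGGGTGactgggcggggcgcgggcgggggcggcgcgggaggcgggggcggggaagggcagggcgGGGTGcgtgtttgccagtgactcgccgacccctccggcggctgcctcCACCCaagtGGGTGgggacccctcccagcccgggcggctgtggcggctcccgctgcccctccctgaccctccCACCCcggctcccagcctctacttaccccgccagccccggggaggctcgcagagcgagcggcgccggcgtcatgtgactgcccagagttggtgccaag
S1pr4: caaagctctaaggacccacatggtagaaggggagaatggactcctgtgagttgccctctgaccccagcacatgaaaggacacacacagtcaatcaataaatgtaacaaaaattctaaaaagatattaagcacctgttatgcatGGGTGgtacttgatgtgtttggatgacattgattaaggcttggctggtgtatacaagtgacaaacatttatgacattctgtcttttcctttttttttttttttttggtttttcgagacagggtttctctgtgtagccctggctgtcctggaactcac

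The Klf2 window held this loose MEF2 pattern once, at position -118 from the start, with only A and T between CTA and TAG. The pattern with any 4 bases there was found in 3.7% of 27025 promoters of the same length. MEF2 factors, activated by the kinase ERK5, are known inducers of Klf2 in endothelial cells. CACCC was matched once in the Klf2 window, 5 times in the Klf3 window and once in the S1pr4 window, and 56.7% of all promoters held it. The FOXO core TGTTTAC, found in 3.55% of promoters, was not among the letters of these windows on either strand, and no match overlapped another. The Klf2 and Klf3 windows were rich in G and C (69.3% and 76.7%), and the S1pr4 window was not (41%), against a median of 52.7% over all promoters. A match describes the letters and not a bound site.

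Cd69 stood high in all libraries and, as deposited, was the member that was higher with M9. It had 2791 and 3794 normalized counts in TRP1high and TRP1low with M9, against 1863 and 3021 with K8. TRP1low with M9 was the highest of the 4 libraries and TRP1high with K8 the lowest. Cd69 was 1.498-fold higher with M9 than with K8 in TRP1high (1.41 to 1.59) and 1.26-fold higher in TRP1low (1.19 to 1.32). The direction in TRP1high turned to a log2 difference of -0.11 with the same sum of Cd3 transcripts, against 0.58 as deposited. In TRP1low the log2 difference fell to 0.11 under that scaling, against 0.33 as deposited. Between receptors, Cd69 was 1.36-fold lower in TRP1high than in TRP1low with M9 (1.29 to 1.43) and 1.62-fold lower with K8 (1.52 to 1.73). The difference with M9, -0.44 on the log2 scale, passed 2-fold with the same sum of Cd3 transcripts, at -1.09. Cd69 lies on chromosome 6 (129267325 to 129275436, minus strand).

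Since CD69 and S1PR1 oppose each other, their transcripts were also set side by side within each library, where scaling has no part. On the log2 scale, Cd69 minus S1pr1 was 4.40 and 4.76 in TRP1high and TRP1low with M9, against 2.11 and 0.21 with K8. Read as a ratio of normalized counts plus 1, Cd69 was 21.1 and 27.0 times S1pr1 with M9, against 4.32 and 1.16 times with K8. These are ratios of read counts that are not corrected for transcript length, so that only their differences between libraries can be read.

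Counted over the members, 2 of 5 (S1pr1 and Klf2) were lower with M9 than with K8 by 2-fold or more in TRP1high, where 5.78% of genes were, and the same 2 were in TRP1low, where 9% of genes were. Both were among the 2% of 12580 genes that were at least 2-fold lower in both pairs, and 0 of 5 members were higher by 2-fold or more in either pair, where 6.29% and 9.29% of genes were. For TRP1high against TRP1low with K8, 1 of 5 (S1pr1) was at least 2-fold lower, against 10.1% of genes, and with M9 0 of 5 were at least 2-fold apart in either direction, against 15.8% of genes. The median M9 minus K8 difference of the 5 members was -0.29 in TRP1high and -0.65 in TRP1low, against -0.03 and 0.02 over all genes. The median TRP1high minus TRP1low difference of the members was -0.02 with M9 and -0.70 with K8, against -0.04 for all genes with either peptide. The difference of differences was at least 2-fold for 1 of 5 members (S1pr1), against 21.8% of genes. These comparisons share libraries pair by pair. The members, and the gene and marker lists that follow, were chosen with earlier results of these data known. Their counts beside the shares of all genes are therefore descriptions and not tests.

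**Figure D2:**
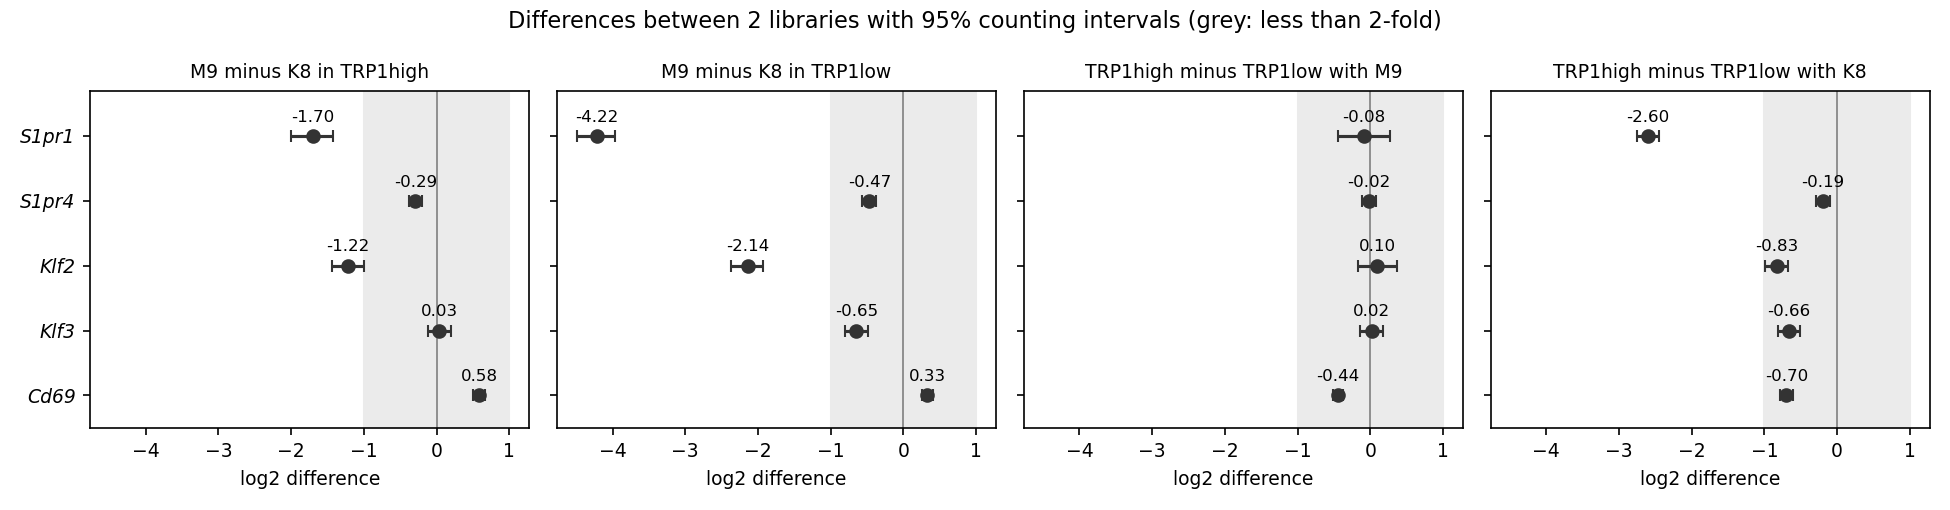
Log2 difference between 2 libraries on the horizontal axis for each member, 1 panel per comparison, with the grey band marking less than 2-fold and bars the 95% counting intervals. S1pr1 and Klf2 lie left of the band for M9 minus K8 in both receptors, S1pr1 also for TRP1high minus TRP1low with K8, and no member leaves the band with M9.

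An additive limma model of receptor and peptide over the 4 libraries, whose only residual is the disagreement between the pairs, called 0 of 16102 genes for the peptide (0%) at a Benjamini-Hochberg adjusted p of 0.05, with 1342 genes (8.33%) at an unadjusted p under 0.05. Averaged over the receptors, Klf2 was -1.68 on the log2 scale with M9 (SE 0.35), with an unadjusted limma p of 0.0286 and an adjusted p of 0.581. S1pr1 was -2.96 (SE 0.83), with p values of 0.0538 and 0.598 after adjustment. Cd69 was 0.46 higher (SE 0.21, adjusted p = 0.654), and S1pr4 and Klf3 had values of -0.38 and -0.31 (SE 0.20 and 0.29). For the receptor, the limma model called 0 genes (0%), with 2044 (12.7%) at an unadjusted p under 0.05, and the members' differences of TRP1high minus TRP1low ran from -1.34 for S1pr1 (SE 0.83) to -0.10 for S1pr4 (SE 0.20), with adjusted p from 0.415 to 0.802. With limma's trend and robust options on, 1 gene was called for the peptide and 184 for the receptor, and the members' adjusted p ran from 0.182 to 0.671 and from 0.12 to 0.742.

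Genes with the most similar course over the 4 libraries were sought by the Euclidean distance between log2 values centred on their own mean. The search covered 10090 genes with at least 50 normalized counts on average, with symbols of predicted gene models and date-like names left out. Nearest to S1pr1 were Gria3, a glutamate receptor subunit (distance 0.40), Itgae, the alpha chain of the integrin CD103 that binds E-cadherin in epithelia (0.47), and Bcl6, a transcriptional repressor (0.53). Only the first 2 came within 0.5, and 52 genes were nearer to S1pr1 than Klf2 was (1.79). Nearest to Klf2 were Ebi3, a subunit of interleukins 27 and 35 (0.11), the channel gene Aqp3 (0.27) and Myl4, a myosin light chain (0.30), with 12 genes within 0.5.

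The 3 members of narrow range had many neighbours. Within 0.5 of S1pr4 were 3442 genes, led by Cmtr1, Dhx35 and Fggy. Klf3 had 2400, led by Zmym5, Ipcef1 and Snx17, and Cd69 had 711, led by B4galt3, Sestd1 and Fam46c. S1pr4 and Klf3 were the nearest pair of members (0.34), and Cd69 and S1pr1 the farthest (3.68). With 4 values per gene, such distances describe these libraries only.

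Among other genes of sphingosine 1-phosphate metabolism and signalling, 2 of 24 were higher with M9 by 2-fold or more in both pairs, against 2.03% of genes, and 0 of 24 were lower. Rgs1, a GTPase activator that dampens signals from chemoattractant receptors coupled to inhibitory G proteins, stood at log2 12.22 and 10.73 in TRP1high and TRP1low with M9, against 10.15 and 7.73 with K8. It was 4.22-fold higher with M9 in TRP1high (3.95 to 4.50) and 8.0-fold higher in TRP1low (6.77 to 9.48), and TRP1high was above TRP1low by 2.82-fold with M9 and 5.35-fold with K8. Its order of libraries was the reverse of that of S1pr1, though the M9 libraries differed for Rgs1 and not beyond counting error for S1pr1. Arrb1, an arrestin that uncouples receptors from G proteins, was 2.15-fold and 2.21-fold higher with M9 in TRP1high and TRP1low, log2 differences of 1.10 and 1.14. With the same sum of Cd3 transcripts these were 0.41 and 0.92, below 2-fold, and the TRP1high minus TRP1low difference of Rgs1 with M9 was 0.85, against 1.49 as deposited.

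Of the other receptors, S1pr2 stood at log2 6.72 and 7.90 in TRP1high and TRP1low with M9, against 7.79 and 8.38 with K8, and was 2.1-fold lower with M9 in TRP1high. S1pr3 had 11 and 0 reads in TRP1high and TRP1low with M9, against 0 and 1 with K8. S1pr5 and Spns2, an exporter of the lipid, were not among the gene rows used here. The kinase Sphk2, the lyase Sgpl1, the phosphatase Sgpp1, the G protein subunit Gnai2, the receptor kinase Grk2 and the egress factors Coro1a and Stk4 lay less than 2-fold apart in all 4 comparisons. With the same sum of Cd3 transcripts, the M9 minus K8 difference of Sgpp1 in TRP1high passed 2-fold, at -1.25, against -0.56 as deposited. The list's median M9 minus K8 difference was -0.06 in TRP1high and -0.28 in TRP1low, against -0.03 and 0.02 over all genes.

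Of 12 further KLF family genes measured, 0 passed 2-fold in 1 direction in both peptide pairs, where 2.03% of genes were higher and 2% lower, or in both receptor pairs, where 4.1% were higher and 2.9% lower. A list of this length with no such gene is near those shares. The median M9 minus K8 difference of these genes was -0.13 in TRP1high and 0.09 in TRP1low, against -0.03 and 0.02 over all genes. Klf12 was lower by 2-fold or more in both receptor pairs with the same sum of Cd3 transcripts, as 6.21% of genes were. The most abundant, Klf6, an early response KLF factor, stood at log2 12.76 and 12.80 in TRP1high and TRP1low with M9, against 12.24 and 11.57 with K8, and its direction in TRP1high turned to a log2 difference of -0.17 with the same sum of Cd3 transcripts. Klf13 and Klf16 lay less than 2-fold apart in every comparison. Klf8 went opposite ways, at 85.9 and 25.2 estimated reads in TRP1high and TRP1low with M9, against 20.02 and 157 with K8.

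Of 16 genes known to act upstream of Klf2, 0 passed 2-fold in 1 direction in both pairs of either contrast, which is again near the shares of all genes (2.03%, 2%, 4.1% and 2.9%). Their median M9 minus K8 difference was -0.25 in TRP1high and -0.16 in TRP1low, against -0.03 and 0.02 over all genes. Map3k2, a kinase of the ERK5 cascade, was lower by 2-fold or more in both receptor pairs with the same sum of Cd3 transcripts, as 6.21% of genes were. Foxo1, the forkhead factor that activates Klf2 in resting T cells, was lower with M9 by log2 differences of -0.52 in TRP1high and -0.73 in TRP1low, less than 2-fold in each, and by -1.21 in TRP1high with the same sum of Cd3 transcripts. Elf4, an ETS factor that induces Klf2 in CD8 T cells, was lower by -0.42 and -0.70, and by -1.11 in TRP1high under that scaling. The kinase genes Map2k5 and Mapk7, which encode MEK5 and ERK5, differed by 0.13 and -0.33 in TRP1high and by 0.22 and -0.22 in TRP1low, and both values of Map2k5 turned negative under that scaling (-0.55 and -0.0054). Foxp1, which holds T cells in quiescence, was 2.25-fold higher with M9 in TRP1low (2.09 to 2.42) and had a ratio of 0.886 in TRP1high. With the same sum of Cd3 transcripts, its log2 difference in TRP1low was 0.95, below 2-fold, against 1.17 as deposited.

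Among 16 homing and adhesion genes, Ccr7, the receptor that brings T cells into lymph nodes, stood at log2 14.86 and 14.23 in TRP1high and TRP1low with M9, against 14.10 and 13.95 with K8, less than 2-fold apart in every comparison. In TRP1low, Cxcr4, a chemokine receptor, Itga4, the alpha4 integrin chain, and Il7r, the interleukin 7 receptor chain and a FOXO1 target, were 5.58-fold, 4.17-fold and 3.99-fold lower with M9. In TRP1high the same genes had M9 to K8 ratios of 0.512, 0.694 and 0.555. Fut7, also on this list, went the other way in TRP1low, at 3.63-fold higher with M9 (2.19 to 6.47), with a ratio of 0.534 in TRP1high. By 2-fold or more, 9% of all genes were lower with M9 in TRP1low and 9.29% higher. For the peptide, 0 of 16 passed 2-fold in 1 direction in both pairs, against 2.03% of genes higher and 2% lower, and the median difference was -0.18 in TRP1high and -0.11 in TRP1low, against -0.03 and 0.02 over all genes. With the same sum of Cd3 transcripts, Cxcr4, Itga4 and Il7r were lower in both pairs, at -1.65, -1.22 and -1.54 in TRP1high, as 5.18% of genes were by 2-fold or more. Gpr183, a receptor for oxysterols that positions lymphocytes in the node, was 2.08-fold lower in TRP1high than in TRP1low with M9 and 3.66-fold lower with K8, a pattern shared by 2.9% of genes for the receptor.

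Of the tissue retention genes, 3 of 10 were lower with M9 by 2-fold or more in both pairs, against 2% of genes, and 1 higher. Itgae was 3.47-fold lower with M9 in TRP1high and 21.2-fold lower in TRP1low, on 23.0 and 31.0 estimated reads in TRP1high and TRP1low with M9, against 79.1 and 503 with K8. Cxcr6, a chemokine receptor of resident T cells, was 2.25-fold and 3.79-fold lower, and Ahr, the aryl hydrocarbon receptor, 2.87-fold and 4.93-fold lower. Rgs2, a relative of Rgs1, was 6.70-fold and 2.79-fold higher with M9. The list's median difference was -1.62 in TRP1high and 0.17 in TRP1low. Zfp683 and Prdm1, which encode the residency factors HOBIT and BLIMP1, differed by -3.08 and -2.34 in TRP1high, and by 1.40 and -0.18 in TRP1low, Zfp683 on 5 reads with M9 and 1 with K8. Between receptors, Runx3, a factor of CD8 T cell identity and residency, was 1.09 and 1.80 higher on the log2 scale in TRP1high than in TRP1low with M9 and K8, and Ahr differed by -1.08 and -1.88. Of the C-type lectin genes near Cd69, 0 of 6 were 2-fold apart in 1 direction in both peptide pairs, near the 2.03% of genes higher and 2% lower, and Clec2d was 2.87-fold and 3.19-fold higher in TRP1high than in TRP1low with M9 and K8, as 4.1% of genes were by 2-fold or more. With the same sum of Cd3 transcripts, Clec2d and Runx3 differed between receptors with M9 by 0.87 and 0.45, below 2-fold, and Clec2i and Klrb1c were lower with M9 by 2-fold or more in both peptide pairs, as 5.18% of genes were.

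**Figure D3:**
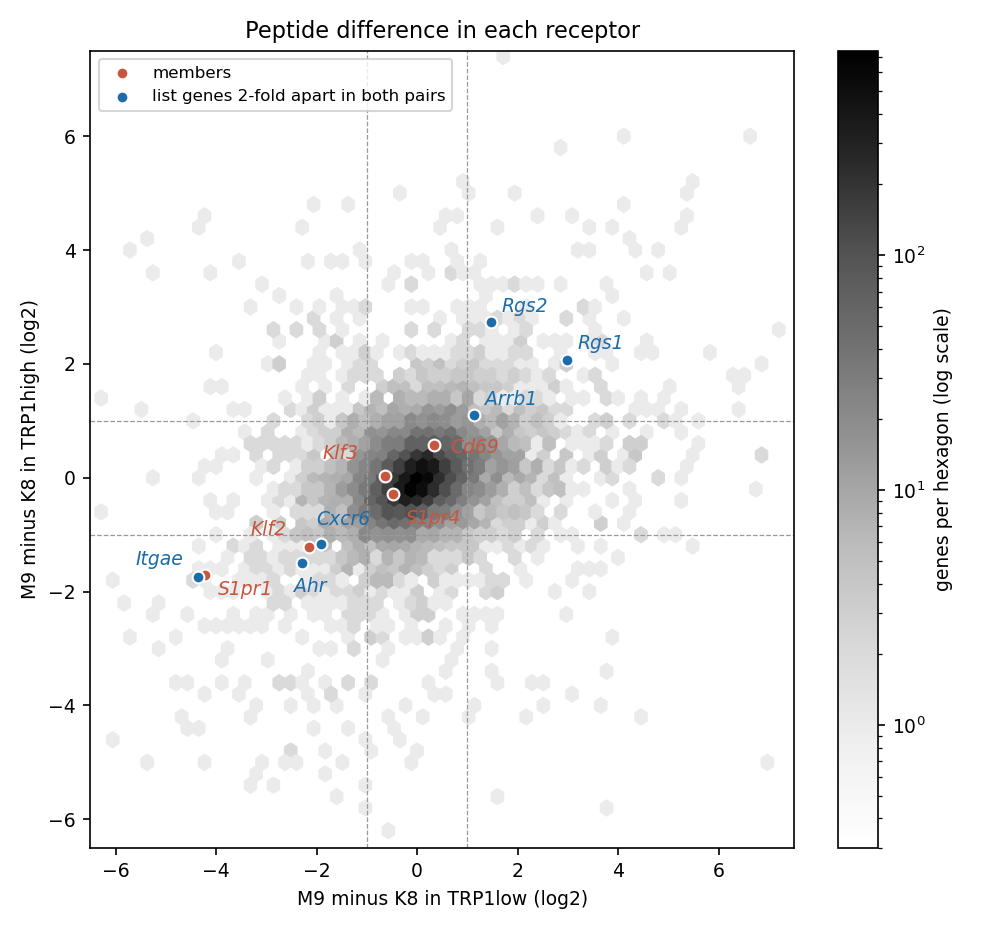
M9 minus K8 log2 difference in TRP1high (vertical) against that in TRP1low (horizontal), with genes that reach 10 normalized counts in each pair as grey hexagons and dashed lines at 2-fold; 12563 of 12580 genes lie within the axes. S1pr1 lies beside Itgae, and Klf2 beside Cxcr6 and Ahr, at the lower left, with S1pr4, Klf3 and Cd69 inside the dashed lines.

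Transcripts of other cells also differed between the libraries, not all in the order of S1pr1 and Klf2. S1pr1, Klf2 and Cd69 are also transcribed in B cells, which were in the co-culture, and the 12 B cell markers summed to 322 and 441.5 normalized counts in TRP1high and TRP1low with M9, against 1675 and 1503 with K8. With M9, 11 of 12 were lower by 2-fold or more in TRP1high, against 5.78% of genes, and 6 of 12 in TRP1low, against 9% of genes, with 1 higher in TRP1low, and Pax5, Cr2 and Fcrla were at 0 in TRP1high with M9. The 5 myeloid markers measured summed to 9.32 and 19.8 in TRP1high and TRP1low with M9, against 18.2 and 111 with K8, and the 4 markers of red cells and platelets to 9.46 and 3.62 with M9, against 3.18 and 362 with K8, so that TRP1low with K8 held the most of both. Of 8 endothelial markers, whose cells express S1pr1 and Klf2, Pecam1, which T cells also express, and Vwf were measured, and Vwf stood at log2 1.99 and 1.13 with M9, against 3.62 and 3.58 with K8. These Vwf values rest on 3 and 1 reads in TRP1high and TRP1low with M9, against 11 and 8 with K8. The part of these cells in the S1pr1 and Klf2 differences was not tested.

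The CD8 T cell markers summed to 186016 and 160595 normalized counts in TRP1high and TRP1low with M9, against 156529 and 159702 with K8. The next highest sum, that of the plasma cell markers at 2712 to 7055, was mostly Xbp1, which activated T cells also express. Of 3 NK cell markers measured, Eomes, which CD8 T cells also express, made up most of the sum, and Klrb1c was at log2 0 and 1.08 with M9, against 3.62 and 3.35 with K8. The Klrb1c values rest on 0 and 1 reads in TRP1high and TRP1low with M9, against 11 and 7 with K8. Klre1, the other NK cell marker, was at log2 5.47 and 3.23 with M9, against 2.46 and 3.25 with K8, and so was higher with M9 in TRP1high. Among 5 plasma cell markers, 3 were lower by 2-fold or more with M9 in TRP1high and 2 in TRP1low, against 5.78% and 9% of genes. Xbp1 was higher with M9 in TRP1low, at log2 12.62 with M9, against 11.14 with K8. The 4 CD4 T cell markers summed to between 45.7 and 137 in all libraries.

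**Figure D4:**
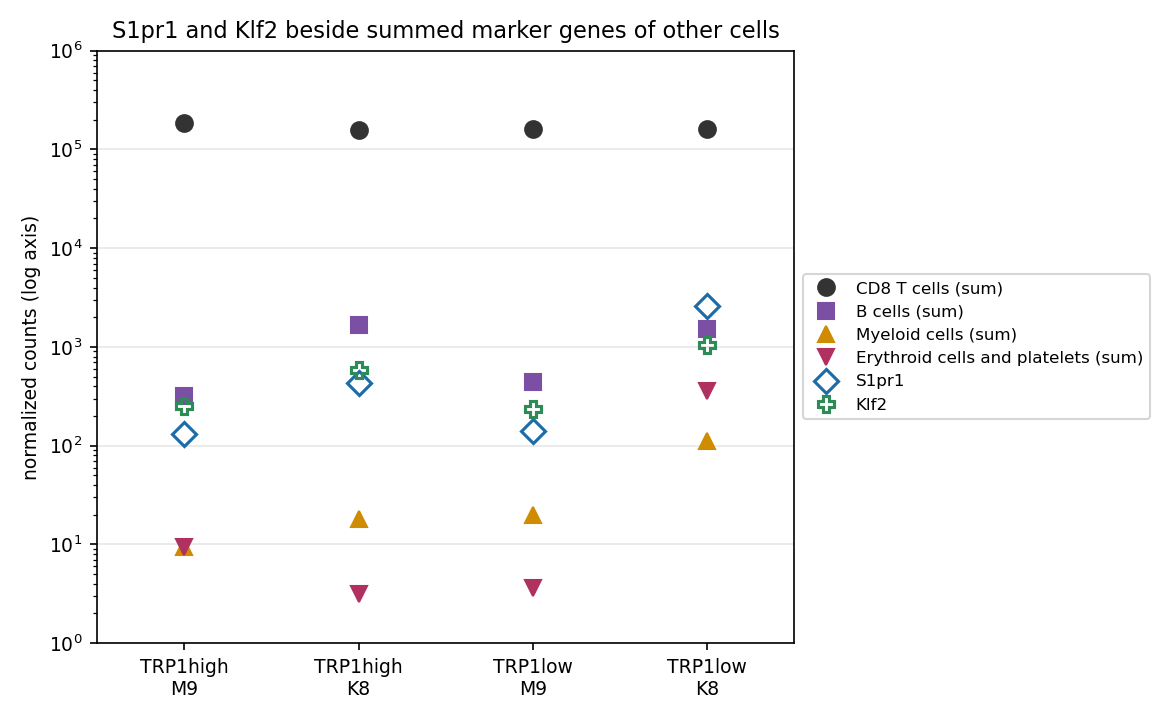
Normalized counts on a log axis, by library, of S1pr1 and Klf2 (open symbols) and of summed markers of CD8 T cells, B cells, myeloid cells, and red cells with platelets (filled symbols). The B cell sum is higher in both K8 libraries, and the myeloid and the red cell and platelet sums are highest in TRP1low with K8, the library with the highest S1pr1 and Klf2.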

How the data were processed

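RNA sequencing libraries of sorted mouse T cells were analysed, 4 in all and 1 per group, grouped by their titles. The values deposited by the authors are, per the file headers, normalized counts on a log2 scale for each gene symbol. The submitters' processing notes name Salmon 0.8.2, DESeq2 1.20.0 and build mm10, without settings or a transcript annotation. The logarithm was undone and 1 taken away; low values then piled up at multiples of 1 step per library, taken as what 1 read adds (0.989, 0.998, 1.05 and 1.37 normalized counts in TRP1high with M9 and K8 and TRP1low with M9 and K8). Between 55.2% and 56.5% of values up to 50 reads lay within 0.01 of a whole read, so that no count model was run. Depth sets the counting intervals, which use reads rounded to whole numbers and cover counting error only, since reads carry no molecular identifiers.

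Genes at least 2-fold apart, on the log2(value + 1) scale, with at least 10 normalized counts in 1 library compared were counted; folds of single genes leave out the added 1. Limma 3.58.1 in R 4.3.3 fitted receptor and peptide with 1 residual degree of freedom over the 16102 genes whose mean reached 1 normalized count, with Benjamini-Hochberg adjustment. It measures disagreement between pairs of libraries, not between cultures. The limma fit and the pair differences were run on simulated data in which the peptide effect was the same in both receptors. That setting differs from these data, where the peptide differences of the receptors could differ, so it does not bear on the p values given here. Positions come from GENCODE M21 (GRCm38, mm10) and promoters from RefSeq (GRCm38.p6). The 5 members, the gene lists, the marker lists and the motifs were chosen with earlier results of these data known. All members are named, with the 3 genes nearest to each in course over the libraries and the list genes at least 2-fold apart in both pairs of a contrast; other list genes named in the text, for their role or their values, were chosen after their values were seen. List genes at no more than 3 reads in every library (Clec2f) were left out of counts. Some single genes of the lists are not reported here. The shares of all genes at other folds, and the list counts under the scaling to Cd3 transcripts, were added after the data were seen.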

Additional observations from a re-analysis of the deposited data

Results flagged for a closer look

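Opposite directions in paired comparisons, at any size, were found for 2 members. Among list genes, only those at least 2-fold apart in each of the opposite comparisons and at 10 normalized counts in a library of each are given, which left 2, while smaller or less abundant opposite differences were more frequent. Each rests on 1 library per group, and the difference between the comparisons was not tested. Klf3 had an M9 minus K8 log2 difference of 0.0343 in TRP1high and -0.65 in TRP1low. Its TRP1high minus TRP1low difference was 0.0177 with M9 and -0.66 with K8. Klf2 had TRP1high minus TRP1low differences of 0.10 with M9 and -0.83 with K8. For each of these, the counting interval of the value near 0 included equal levels. Klf8, a KLF family repressor, had an M9 minus K8 difference of 2.03 in TRP1high and -2.98 in TRP1low, and TRP1high minus TRP1low differences of 1.65 with M9 and -3.36 with K8. Mef2c had TRP1high minus TRP1low differences of -2.11 with M9 and 1.19 with K8, on 1.83 to 16.3 estimated reads per library.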

How the results depend on the processing

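Scaling to the same total or the same upper quartile, or adding 10 normalized counts before the logarithm, left all 35 member values within their counting intervals or on the same side of the limma threshold, with sign changes in 1 value each under the scalings (S1pr4, TRP1high minus TRP1low with M9). Scaling to the same sum of Cd3d, Cd3e and Cd3g shifted every gene by -0.51, 0.18, 0.13 and 0.36 in TRP1high with M9 and K8 and TRP1low with M9 and K8. It moved 23 of 35 member values and changed the sign of 6, among them Cd69 with M9 in TRP1high, and a common shift of this kind also enters the limma residual of every gene. Under it, 1 member was 2-fold apart for TRP1high minus TRP1low with M9 (29.3% of all genes), in place of 0, and 2 with K8 (24.1%), in place of 1. Limma then called 441 genes for the peptide and 624 for the receptor, in place of 0 each, with S1pr1 at an adjusted p of 0.000722 for the peptide, against 0.264 to 0.611 in the other settings. With 10 normalized counts added, 32 genes were called for the receptor, and with trend and robust on, 1 for the peptide and 184 for the receptor; the cause was not tested. At 4-fold, 0 members were counted for M9 minus K8 in TRP1high (4.25% of all genes), in place of 2. At 1.5-fold, 4 members were counted for TRP1high minus TRP1low with K8 (40.1%) and 3 for the difference of differences (36.1%), in place of 1 each. Leaving out 1 library leaves the difference of the intact pair, already given, with no residual for a test and so no count of limma calls. Without either TRP1low library, S1pr1 was -1.70 with M9 and Klf2 -1.22, and without either TRP1high library -4.22 and -2.14. No paired analysis was possible because each group holds 1 library and the labels give no replicate numbers. Depth limits S1pr1 with M9, at 133 reads per library, and Itgae, Ahr, Klf8 and Mef2c.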
